A study of Mus musculus with 3 samples.

Results

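The Hes1 locus was examined in a ChIP-seq experiment that mapped Notch2 on the chromatin of the mouse embryonic kidney. Hes1 encodes a basic helix-loop-helix repressor and is a classic direct target of Notch signalling. The locus was taken as the 350 kb window chr16:29900000-30250000 of the mm9 build, and a peak belonged to it when its centre lay inside. Of the 28651 distinct peaks of replicate 1, 27 lay in this window, and of the 12585 distinct peaks of replicate 2, 13 did. The gene itself was placed at about chr16:30065300-30067800. That position is approximate. It lies within 100 bp of the position in a RefSeq gene table of GRCm38, which is another build, and it was not checked against an mm9 annotation here, so its offset in mm9 is unknown and every distance to the gene carries that uncertainty.

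Notch2 is a transmembrane receptor. When a ligand on a neighbouring cell binds it, its intracellular part is cut free, enters the nucleus and joins the DNA-binding protein RBPJ, which recruits coactivators to target genes. The Hes1 protein in turn represses transcription, including that of its own gene, and in the forming nephron Notch2 takes part in the choice of proximal cell fates. Hes1 is transcribed towards higher coordinates, so its lower end is the start of the gene and lower coordinates are upstream. In a RefSeq gene table of GRCm38, used for the order of genes only, the nearest protein-coding gene upstream was Opa1, which encodes a mitochondrial dynamin-like GTPase. The nearest one downstream was Cpn2, which encodes a subunit of the plasma enzyme carboxypeptidase N. Between Opa1 and Hes1 the table held 8 long non-coding RNA genes, the nearest to Hes1 being 9030404E10Rik. Between Hes1 and Cpn2 it held 4 long non-coding RNA genes, the nearest to Hes1 being Gm32998, and 2 pseudogenes.

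Whole kidneys of mouse embryos at stage E16.5 were crosslinked with paraformaldehyde. Chromatin was immunoprecipitated with a Notch2 antibody in 2 samples, numbered 1 and 2 by the labels, and 1 input sample accompanied them. The labels name no strain or genotype, and the replicates may be technical, since nothing says that they came from separate litters. Each immunoprecipitation had its own list of peaks with chromosome, start and end, without a height, score or count, so the depth behind a peak is unknown. The input was not used here as a library. A peak from whole kidneys does not tell in which cell type Notch2 was bound. With 1 list per replicate no test across samples was possible, and the values below are descriptions.

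Both replicates marked the start of Hes1 with one of their widest and earliest listed peaks. In replicate 1 the peak at the gene was chr16:30063912-30067016, 3105 bp wide. It stood at place 17 of 28651 and had rank 44 by width. In replicate 2 the peak at the gene was chr16:30063489-30065786, 2298 bp wide. It stood at place 3 of 12585 and had rank 41 by width. Place means the position of a peak in the deposited file with repeated rows counted once, and the sources used here do not say how the files were ordered. The replicate 2 row of this peak was listed 2 times.

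The 2 peaks at the gene differed in extent. The replicate 1 peak began 1.39 kb upstream of the start of Hes1 and ended 1.72 kb past it, so that it covered about 68.7% of the gene. The replicate 2 peak began 1.81 kb upstream and ended 0.486 kb past the start, and covered about 19.5% of the gene. Placing the gene 100 bp lower or higher, an alternative chosen once the data were known, gave 64.7 to 72.7% for the replicate 1 peak and 15.5 to 23.5% for that of replicate 2. The unknown offset in mm9 is not bounded by this shift. The 2 peaks overlapped by 1875 bp, which was 60.4% of the replicate 1 peak and 81.6% of the replicate 2 peak. Their centres were 827 bp apart, with the replicate 1 centre about 0.16 kb downstream and the replicate 2 centre about 0.66 kb upstream of the approximate start. Each peak was paired with the peak of the other list that it overlapped most, where this held both ways. Over all 9442 such pairs the median distance between centres was 81 bp, and 0.508% of pairs had centres at least as far apart as the Hes1 pair. Wide peaks leave more room for such a shift. Among the 245 pairs whose replicate 1 peak was 2000 bp or wider, a limit chosen after the data were seen, the median was 470 bp, with quartiles of 174 and 693 bp.

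**Figure D1:**
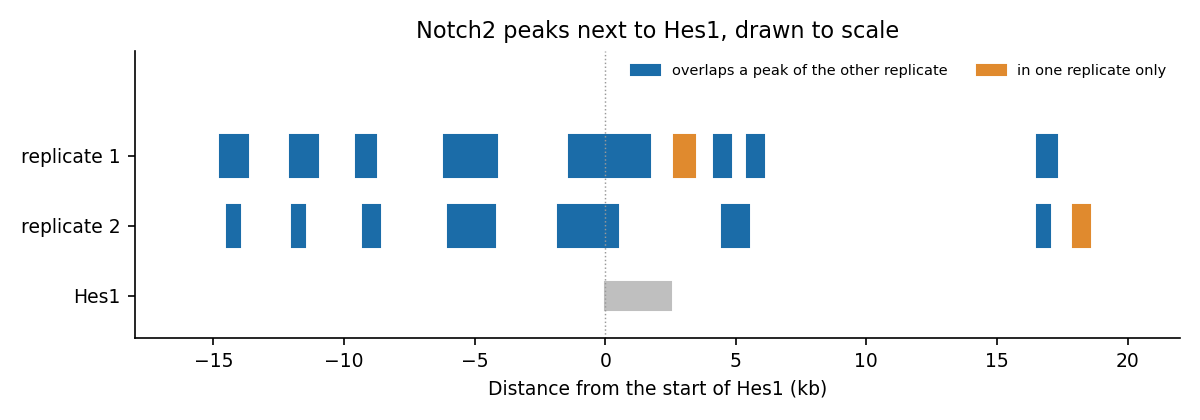
Peaks of both replicates from 18 kb upstream to 22 kb downstream of the start of Hes1, drawn to scale along the horizontal axis (distance from the gene start in kb). Blue boxes overlap a peak of the other replicate, orange boxes do not, and the grey box is the gene; the replicate 1 peak at the gene reaches 1.72 kb past its start and the replicate 2 peak 0.486 kb.

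The peak at the gene stood within a tight run of Notch2 peaks. With peaks joined when no more than 10 kb separated their edges, the run that held Hes1 had 8 peaks in replicate 1, from 30050537 to 30071379, and 6 in replicate 2, from 30050832 to 30070796. It reached from 14.8 kb upstream to 6.08 kb downstream of the gene start in replicate 1, where peaks covered 48.7% of its length, and from 14.5 kb upstream to 5.50 kb downstream in replicate 2, where they covered 34.0%. All 6 of the replicate 2 peaks and 7 of the 8 replicate 1 peaks of the run overlapped a peak of the other list, against 75.5% of all replicate 2 peaks and 33.0% of all replicate 1 peaks. At 6 peaks, the replicate 2 count is close to its background. Both counts rest on an overlap of at least 1 bp. At the sites 14.2 and 11.5 kb upstream the overlap was 45.3% and 46.3% of the replicate 1 peak. Downstream, 2 of the 7 replicate 1 peaks overlapped the same replicate 2 peak, by 358 and 54 bp. The larger of these overlaps was 34.7% of the replicate 2 peak. At 50% of both peaks, only the peak at the gene and the sites 5.17 and 9.15 kb upstream would thus pass. The other peaks of the 8 and 6 would not. By this criterion the whole lists had shares of 29.0% and 66.0%, so the run did not stand clearly apart from them. Of all such runs, single peaks included, 0.182% of the 21372 in replicate 1 held 8 or more peaks, and 0.186% of the 10232 in replicate 2 held 6 or more. The run held the same number of peaks when they were joined within 5 kb, where 0.0247% and 0.0268% of runs held as many. Joined within 25 kb it held 13 and 9 peaks, as many as 0.275% and 0.317% of runs. All these shares are over every run of a list, while the run at Hes1 held an early and wide peak. Runs around other early or wide peaks were not counted apart.

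Upstream of the gene, 4 sites of this run were found in both replicates. The nearest was chr16:30059116-30061153 in replicate 1, 2038 bp wide at place 842, with its centre 5.17 kb upstream of the gene start. Its replicate 2 counterpart, chr16:30059282-30061091, was 1810 bp wide at place 1387, lay wholly inside the replicate 1 peak and had its centre 52 bp away. This was the second widest peak of the window in both lists, with rank 324 by width in replicate 1 and 106 in replicate 2. The next site lay 9.15 kb upstream in replicate 1, where it was 764 bp wide at place 8027, and was 646 bp wide at place 5772 in replicate 2. A site 11.5 kb upstream was 1081 bp wide at place 11835 in replicate 1 and 500 bp wide at place 12254 in replicate 2, among the last of that list. The outermost site, 14.2 kb upstream, was 1103 bp wide at place 1950 in replicate 1 and 500 bp wide at place 4055 in replicate 2. The 2 outer sites thus had the narrowest width of the list, 500 bp, in replicate 2 and exceeded 1 kb in replicate 1.

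Downstream of the gene the replicates differed in the number and borders of their peaks. Replicate 2 had a peak of 1031 bp at chr16:30069766-30070796, with its centre 4.98 kb past the gene start and place 444 in its list. Replicate 1 had 2 narrow peaks over the same stretch. The first of them, chr16:30069473-30070123, was 651 bp wide at place 25916 and overlapped the replicate 2 peak by 358 bp. The other, chr16:30070743-30071379, was 637 bp wide at place 10115 and overlapped it by 54 bp. The same stretch was therefore early in the replicate 2 list, while the better matching replicate 1 peak was in the last 25% of its list. Replicate 1 also held a peak at chr16:30067948-30068722, 775 bp wide at place 7055, without a counterpart. It began about 0.148 kb past the approximate end of Hes1, which is too close to the uncertainty of that end to say whether the peak touched the gene, and the nearest replicate 2 peak was 1.04 kb away.

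A further site beyond the run lay 16.9 kb downstream. Replicate 1 had a peak of 777 bp there at place 12935, and replicate 2 one of 500 bp at place 8477, with centres 157 bp apart. In replicate 2 it was followed by a peak of 634 bp at chr16:30083215-30083848, 18.2 kb past the gene start at place 7248. No replicate 1 peak overlapped it, but one ended 0.601 kb before it. This was the widest and the earliest listed of the 2 replicate 2 peaks without a counterpart. The other was 500 bp wide, 34.0 kb downstream at place 11040, and the nearest replicate 1 peak was 12.1 kb away.

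Far from the gene, 4 sites were shared, and 2 of them were among the earliest peaks of one list. A site 119 kb upstream, chr16:29945648-29947013, was 1366 bp wide at place 36 of replicate 1. Its replicate 2 peak, chr16:29946049-29946714, lay inside it, was 666 bp wide and stood at place 2918. A site 55.7 kb upstream, chr16:30008921-30010210, was 1290 bp wide at place 1115 of replicate 1. Its replicate 2 peak, chr16:30008553-30009790, was 1238 bp wide and stood at place 4, directly after the peak at the Hes1 gene at place 3. Their centres were 394 bp apart. The first 4 places of replicate 2 thus held 2 peaks of this window. Downstream, a site 108 kb from the gene start was 796 bp wide at place 11395 in replicate 1 and 500 bp wide at place 6393 in replicate 2, with centres 16 bp apart. The last shared site, 123 kb downstream, was 757 bp wide at place 1285 in replicate 1 and 500 bp wide at place 3035 in replicate 2, with centres 29.5 bp apart.

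**Figure D2:**
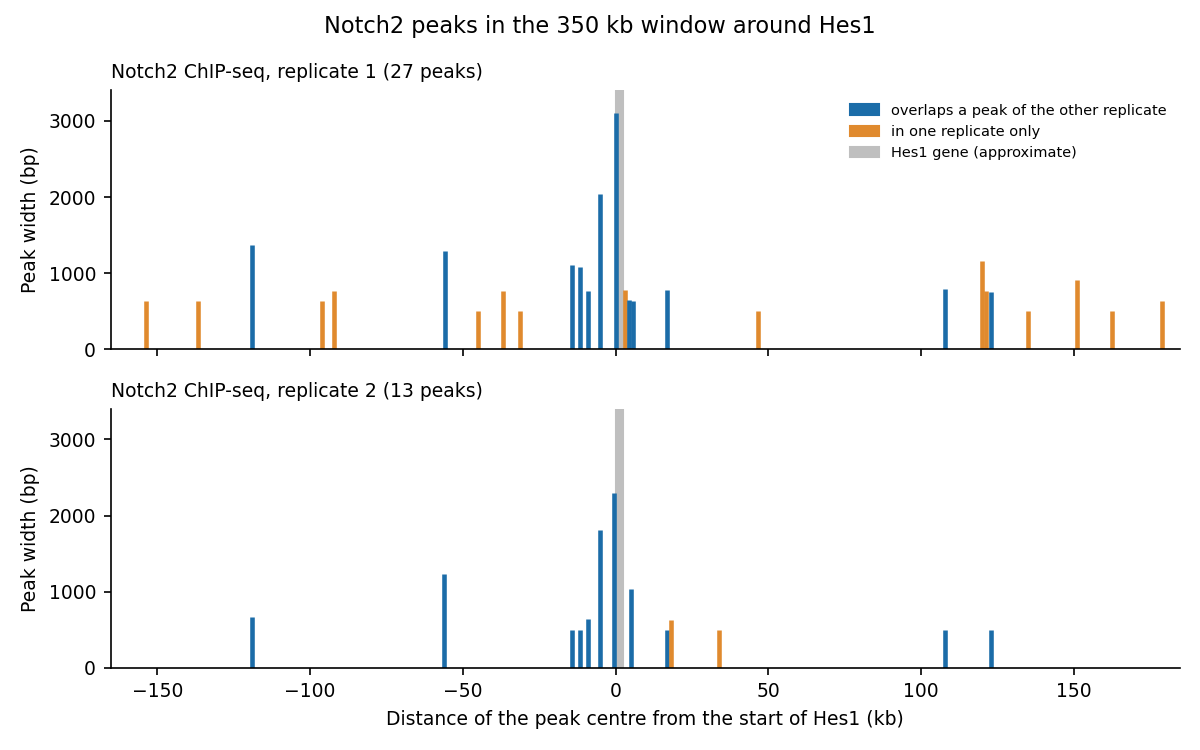
Every peak of the 350 kb window by the distance of its centre from the start of Hes1 (horizontal axis, kb) and its width (height of the line, bp), with replicate 1 above and replicate 2 below. Blue lines overlap a peak of the other replicate and orange lines do not; the tallest line in each panel is the peak at the gene, 3105 bp in replicate 1 and 2298 bp in replicate 2.

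Among the peaks of replicate 1 without a counterpart, the widest was also the earliest listed. It lay at chr16:30184659-30185812, 120 kb downstream, was 1154 bp wide and stood at place 750, earlier than 10 of the 12 shared replicate 1 peaks of the window. The nearest replicate 2 peak was 2.24 kb away. Next to it, replicate 1 had an unshared peak of 760 bp at place 4777, 0.961 kb from the same replicate 2 peak. These 2 peaks and the shared site 123 kb downstream followed each other within 4 kb in replicate 1, where replicate 2 had the single 500 bp peak. Apart from these and the one at the end of the gene, replicate 1 had 12 unshared peaks. They were 500 to 916 bp wide, stood at places 5678 to 25159 and lay between 154 kb upstream and 179 kb downstream. Their nearest replicate 2 peaks were 10.4 to 42.2 kb away, so none of these 12 had a replicate 2 peak close by.

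Shared peaks were counted by distance from the gene start, beside whole-list shares of 33.0% in replicate 1 and 75.5% in replicate 2. Within 10 kb of the gene start replicate 1 had 6 peaks, of which 5 were shared, and replicate 2 had 4, all shared. Between 10 and 50 kb away, 3 of 7 replicate 1 peaks and 3 of 5 replicate 2 peaks were shared. Between 50 and 100 kb away, where peaks lay only on the upstream side, 1 of 3 replicate 1 peaks was shared and the single replicate 2 peak was shared too. Beyond 100 kb, 3 of 11 replicate 1 peaks and 3 of 3 replicate 2 peaks were shared. The numbers in each class are small and were not tested, and 3 of 11 is near the share of the whole replicate 1 list. The peaks were spread over both sides of the gene, with 13 upstream and 14 downstream in replicate 1 and 7 upstream and 6 downstream in replicate 2, counted by their centres. The site at the gene was counted as downstream in replicate 1 and as upstream in replicate 2. Its side depends on the approximate gene start. The longest stretch without a peak in either list was 60.5 kb, from 46.8 to 107 kb downstream, and the next was 34.9 kb, from 91.7 to 56.7 kb upstream.

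In all, 12 of the 27 replicate 1 peaks (44.4%, 95% Wilson interval 27.6 to 62.7%) and 11 of the 13 replicate 2 peaks (84.6%, 57.8 to 95.7%) were shared, that is, overlapped a peak of the other list by at least 1 bp. Over the whole lists these shares were 33.0% in replicate 1 and 75.5% in replicate 2. Both intervals, which cover counting error only, hold the share of the whole list, so the share of shared peaks at Hes1 did not stand apart from it at this number of peaks. Other criteria gave shares on either side of those of the whole lists. With overlap of at least 50% of both peaks, 7 replicate 1 peaks (25.9%) and 7 replicate 2 peaks (53.8%) were shared, against 29.0% and 66.0% of the whole lists. With centres within 100 bp the number was 5 in both (18.5% and 38.5%), against 19.3% and 44.0%, and with centres within 500 bp it was 10 in both (37.0% and 76.9%), against 32.0% and 72.8%. In the first 50% of each list by place, 8 of 21 replicate 1 peaks and 8 of 8 replicate 2 peaks of the window were shared, against 34.9% and 79.8% over these parts of the lists. Among peaks wider than 500 bp, 7 of 22 and 6 of 7 were shared, against 26.5% and 79.1%. The ratio of peak numbers between the replicates was 2.08 in the window and 2.28 over the whole lists.

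The 12 shared replicate 1 peaks of the window had a median width of 939 bp, against 768 bp for all shared replicate 1 peaks, and the 15 unshared ones had a median of 634 bp, against 630 bp. In replicate 2 the 11 shared peaks had a median width of 646 bp, against 630 bp for all shared peaks of that list. Of the 27 replicate 1 peaks, 5 had the narrowest width of 500 bp, and none of these 5 was shared. Over the whole list 31.8% of peaks had this width, and 16.2% of those were shared. Of the 13 replicate 2 peaks 6 had that width, and 5 of the 6 were shared, against 47.9% with this width over the whole list and 63.3% of those shared. At these numbers neither count stood apart. Among the 11 best pairs of the window the wider peak was that of replicate 1 in 10, with a median width ratio of 1.51 against 1.25 over all pairs. The exception was the site 4.98 kb downstream in replicate 2. Over all pairs the quartiles of this ratio were 1.0 and 1.52, so the replicate 1 peak was the wider in most pairs of the whole lists too. The exact share over all pairs was not counted, so the 10 of 11 is not read as a trait of this window. Centres were 6.5 to 827 bp apart in these pairs, with a median of 157 bp against 81 bp over all pairs, and within 250 bp in 8 of the 11, against 88.4% of all pairs.

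Places in the lists were spread over nearly their whole length. In replicate 1, 7 of the 27 peaks of the window (25.9%) were in the first 10% of the list, and 6 of these 7 were shared, close to the 85.4% of all replicate 1 peaks in the first 10% that were. In replicate 2, 3 of the 13 (23.1%) were. The latest peak of the window stood at place 25916 in replicate 1 and 12254 in replicate 2. The peak at the gene was the earliest of the window in both lists, but the order of the other sites differed: the next earliest lay 119 kb upstream in replicate 1 and 56.1 kb upstream in replicate 2. Places in lists of different length are not comparable as sizes, so these orders are given side by side only.

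**Figure D3:**
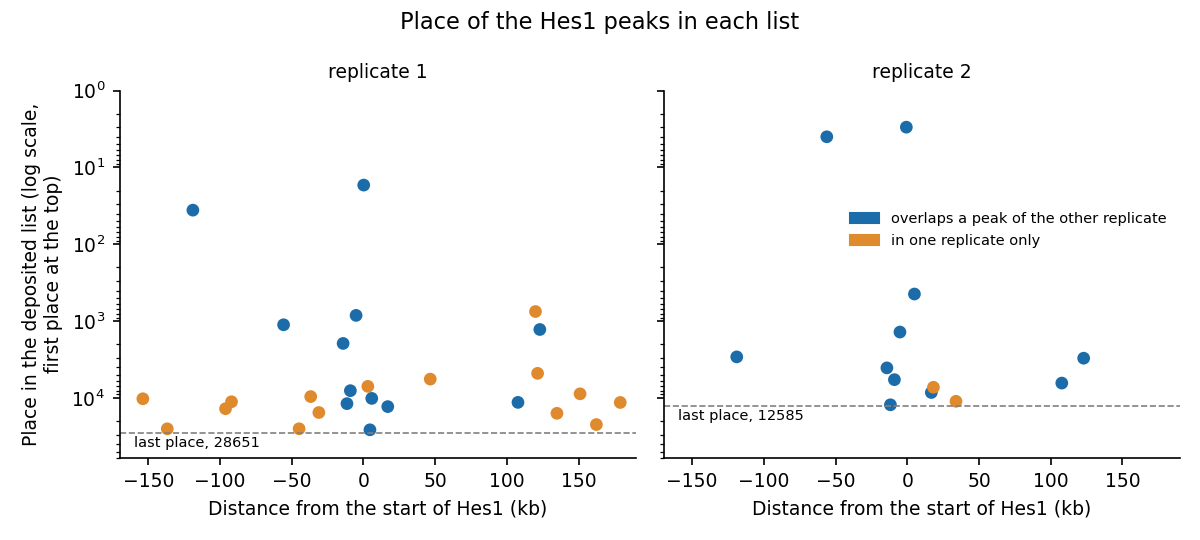
Place in the deposited list (vertical log axis, first place at the top) against distance of the peak centre from the start of Hes1 (kb) for the 27 peaks of replicate 1 (left) and the 13 of replicate 2 (right); dashed lines mark the last place, 28651 and 12585. The peak at the gene is the highest point in both panels, at place 17 and place 3, and blue points overlap a peak of the other replicate.

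The Hes1 window was among the densest of its length. It was compared with 5864 windows of 350 kb, laid end to end from the start of each chromosome and holding at least 1 peak of either replicate, with windows that touched the Hes1 window left out. These windows had a median of 4 replicate 1 peaks (quartiles 2 and 7), 1 replicate 2 peak (0 and 3) and 1 shared replicate 1 peak (0 and 2). With 27, 13 and 12, the Hes1 window was equalled or exceeded by 7 windows in replicate 1 (0.119%), by 50 in replicate 2 (0.853%) and by 30 in shared peaks (0.512%). Only 3 of these windows reached all 3 numbers at once. The highest numbers in any window were 31 peaks in replicate 1, 29 in replicate 2 and 25 shared. Peaks covered 24.5 kb of the Hes1 window in replicate 1 and 11.3 kb in replicate 2, against medians of 2.70 and 0.792 kb, and 13 and 29 windows reached these lengths.

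**Figure D4:**
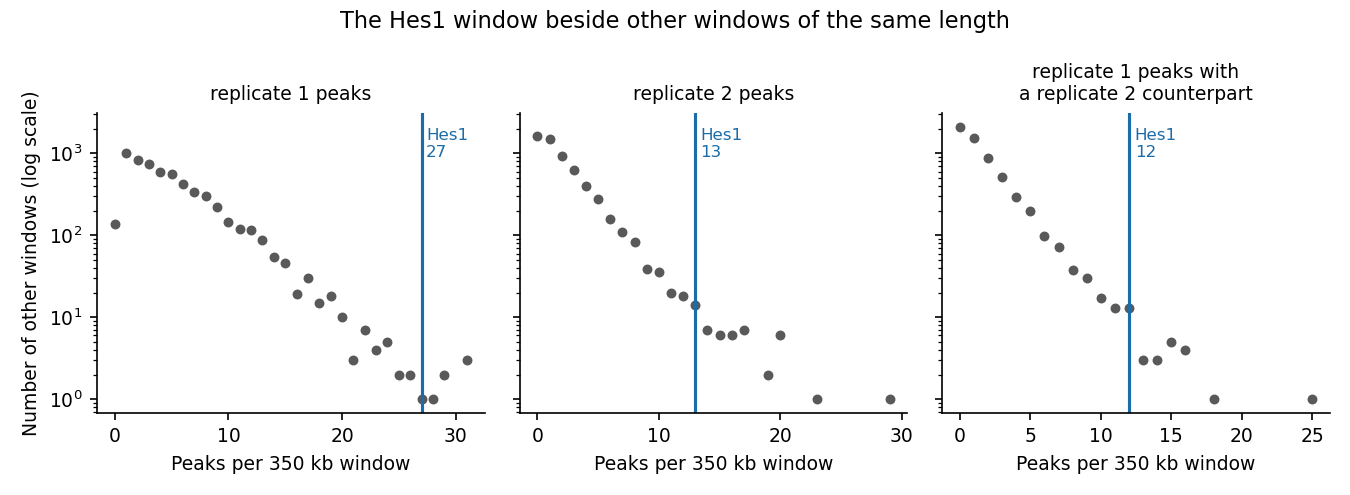
Number of other 350 kb windows (vertical log axis) by the number of peaks they hold (horizontal axis), for replicate 1 peaks, replicate 2 peaks and replicate 1 peaks with a replicate 2 counterpart. The blue line marks the Hes1 window, with 27, 13 and 12 peaks; the other windows have medians of 4, 1 and 1.

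Of the windows on the grid 36.2% held no shared peak, while the Hes1 window was built around a gene with one. When windows were centred on each of 9457 shared replicate 1 peaks outside the Hes1 window, and the Hes1 window on its own peak at the gene, the share with at least as many peaks was 1.26% in replicate 1, 6.65% in replicate 2 and 4.59% for shared peaks. Windows centred on the other 98 of the first 100 replicate 1 peaks outside the Hes1 window, which were chosen once the data were known, had a median of 14 replicate 1 peaks (2 to 33), 8.5 replicate 2 peaks (1 to 31) and 7 shared peaks (1 to 28). Of these 98, 8 had at least 27 replicate 1 peaks, 26 had at least 13 replicate 2 peaks and 24 had at least 12 shared peaks. Beside windows built around other early peaks, the number of replicate 2 peaks and of shared peaks at Hes1 was thus not rare. Many of these windows overlap one another.

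Close to the gene, fewer of the other early peaks matched Hes1 in the number of neighbours than over the whole window. Within 10 kb of the centre of its replicate 1 peak there were 6 replicate 1 peaks, this peak included, and 4 replicate 2 peaks, against a median of 2 in each replicate around the other 98. Only 2 of the 98 had as many in replicate 1, and 13 did in replicate 2. Within 25 kb there were 9 and 8 peaks, against medians of 3 and 3, and 3 of the 98 had as many in each replicate. Windows that held 2 or more of the first 100 peaks of a list, as the Hes1 window did in both, numbered 7 of the 87 windows with any such peak in replicate 1 (8.05%) and 10 of 78 in replicate 2 (12.8%). A replicate 2 peak placed before the one at Hes1 was found in 1 other window, and a replicate 1 peak placed before it in 15.

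The density was lower in the adjoining windows on both sides, but it did not fall steadily with distance. The adjoining 350 kb on the Opa1 side held 16 replicate 1 peaks, 4 replicate 2 peaks and 2 shared replicate 1 peaks, and the best places there were 3627 and 8046. The adjoining 350 kb on the Cpn2 side held 7, 4 and 3, with best places of 936 and 3363. The next 350 kb beyond held 0, 0 and 0 on the Opa1 side and 17, 5 and 5 on the Cpn2 side. In bins of 25 kb out to 500 kb on either side, the 2 bins that meet at the start of Hes1 had 4 and 5 peaks in replicate 1 and 5 and 3 in replicate 2. The peak at the gene fell in the downstream bin in replicate 1 and in the upstream bin in replicate 2. One other bin reached 5 peaks in replicate 1, between 425 and 450 kb downstream, and it held 2 peaks in replicate 2. The bin between 100 and 125 kb downstream held 4 peaks in replicate 1, as many as the bin just upstream of the start, and 2 in replicate 2. No other bin of replicate 2 held more than 2. In replicate 1 the outermost peaks inside were centred 154 kb upstream, 634 bp wide, and 179 kb downstream, 628 bp wide, and the nearest ones outside were 171 kb upstream and 244 kb downstream, both 500 bp wide. In replicate 2 the outermost inside were centred 119 kb upstream and 123 kb downstream, and the nearest outside were 227 kb upstream and 222 kb downstream, both 500 bp wide.

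**Figure D5:**
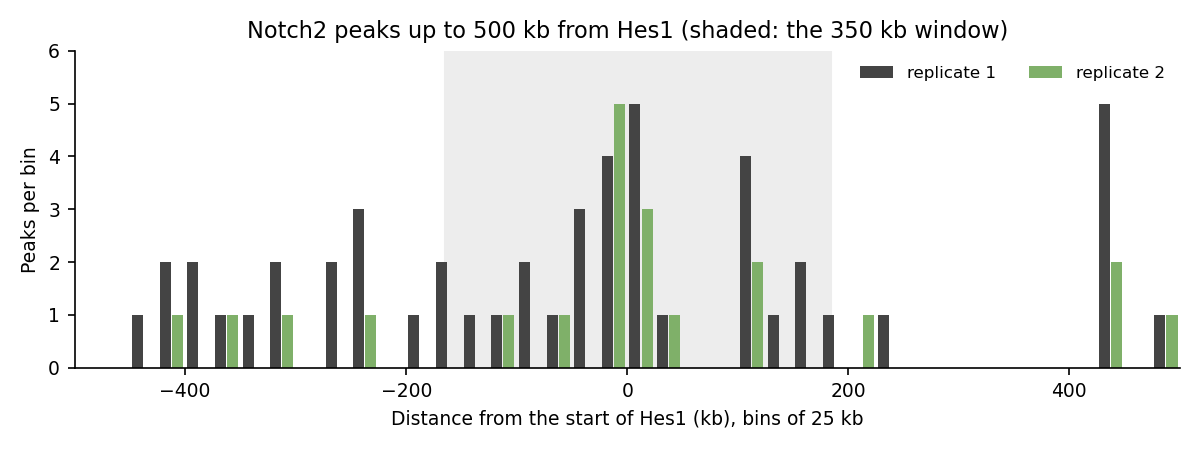
Number of Notch2 peaks per bin of 25 kb (vertical axis) from 500 kb upstream to 500 kb downstream of the start of Hes1 (horizontal axis, kb), with replicate 1 in dark grey and replicate 2 in green; the shaded band is the 350 kb window. The bins on either side of the gene start hold 4 and 5 replicate 1 peaks and 5 and 3 replicate 2 peaks.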

How the data were processed

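Notch2 ChIP-seq was analysed from the peak lists of 2 replicates, which the authors deposited as 3 columns of chromosome, start and end. The submitters' processing notes name HOMER, Bowtie and SAMtools, with mm9 as the build. No versions, roles or settings are given in these sources. Of 28893 and 13065 rows, 242 and 480 repeated another row and were dropped. Starts were converted to positions counted from 1. Peaks with their centre in the window were described by distance, width, place and counterpart (overlap of at least 1 bp). Every peak of the window is accounted for, and those named in full are shared peaks, peaks within 10 kb of the gene start, and the widest and earliest unshared peak of each list. The Hes1 window and these comparisons were chosen with earlier results of these data known. A RefSeq table of promoter sequences had 0 entries for Hes1, so no sequence or motif is given. Overlap counting was tested on 20 simulated lists and equalled a direct count in 20. Scipy 1.17.1, matplotlib 3.10.9, pandas 2.3.3 and numpy 2.4.6 were run in Python 3.11.15.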

Additional observations from a re-analysis of the deposited data

How the results depend on the processing

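Of 44 alternatives run on the Hes1 window, 28 left the value within set limits and 16 moved it. The limits were 1.5 times the value for counts, the 95% Wilson interval for shares of windows and 1 SD over peaks for distances. The interval is wide where few windows count, at 0.0578 to 0.246% around 0.119% in replicate 1. The number of shared peaks (12 in replicate 1 and 11 in replicate 2) was 7 in both with overlap of 50% of both peaks and 5 in both with centres within 100 bp. Among peaks wider than 500 bp it was 7 in replicate 1 and 6 in replicate 2. These numbers are lower by construction, since each of these settings can only remove shared peaks. The number of replicate 2 peaks was 8 in the first 50% of the list and 7 among peaks wider than 500 bp, which are fewer by construction. The share of windows with at least as many peaks was 1.26% in replicate 1, 6.65% in replicate 2 and 4.59% for shared peaks when windows were centred on shared peaks. In the first 50% of each list it was 0.0634% in replicate 1, lower than with the whole list, 1.501% in replicate 2 and 0.845% for shared peaks. In the widest 50% it was 0.185%, 2.18% and 0.965%. The run that holds Hes1 had 13 replicate 1 peaks when joined within 25 kb, more by construction. For the shifts in the shares of windows the cause was not tested. Without either replicate there are no shared peaks to count. No paired analysis was possible because the Notch2 samples were the only group with peak lists. Since the depth is unknown, absence of a peak from 1 list and a signal under its threshold cannot be told apart.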
